A study of Mus musculus with 10 samples.

Results

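The genes described are 30 genes that serve the thick ascending limb of Henle's loop and the distal convoluted tubule, taken by symbol from a gene count table of 21010 genes and compared between 5 KMS and 5 KM mouse kidney libraries. KMS mice are C57BL/6 animals labelled Ksp1.3/cre; MYCfl/fl;Setd2fl/fl, and KM mice are C57BL/6 animals labelled Ksp1.3/cre; MYCfl/fl. Both thus carry the Cre recombinase and the MYC allele, and the Setd2 alleles are the labelled difference. Mice of both sexes were studied at 20 weeks, without a sex label for a library. Ksp is the promoter of Cdh16, a kidney cadherin, so that Cre acts in tubule epithelium. The paper and its reporting form give neoplastic masses of KMS mice and cysts of KM mice as the source of the RNA, whereas the methods name kidney tissue and the labels cortical tubular epithelial cells. With masses in one genotype and cysts in the other, genotype and kind of tissue cannot be told apart.

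The thick ascending limb takes up sodium, potassium and chloride without water and so dilutes the tubule fluid, which makes it the site of loop diuretic action. The distal convoluted tubule that follows takes up sodium chloride through a thiazide-sensitive cotransporter and regulates calcium and magnesium. WNK kinases, through the kinases SPAK and OSR1, phosphorylate and activate both cotransporters, and the KLHL3 and CUL3 ubiquitin ligase removes WNK kinases.

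Promoter windows are shown for Slc12a3 and Slc12a1, the cotransporters whose ratio did not overlap between the groups, and for S100g, Wfdc15b and Umod, which accompany them in the results. Each window is RefSeq sequence of GRCm38.p6 with 250 bases before and 50 after the start, and capitals mark matches, on either strand, to any of 4 motifs that do not overlap here. The letters AAGGTCA are a motif bound by the estrogen-related receptors. The letters GTTAAT are part of the site bound by the HNF1 factors of kidney epithelium. The letters CACGTG are the E-box, which MYC and other factors of its class bind. The letters TATAAA are the TATA box found near the start of some genes.
Slc12a3 (chr8:94328958-94329257, plus strand): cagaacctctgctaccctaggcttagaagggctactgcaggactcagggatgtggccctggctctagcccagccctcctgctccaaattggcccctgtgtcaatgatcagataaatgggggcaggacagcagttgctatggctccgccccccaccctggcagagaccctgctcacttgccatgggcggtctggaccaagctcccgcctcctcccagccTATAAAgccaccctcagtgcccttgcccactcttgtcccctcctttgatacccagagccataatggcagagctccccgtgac
Slc12a1 (chr2:125152350-125152649, plus strand): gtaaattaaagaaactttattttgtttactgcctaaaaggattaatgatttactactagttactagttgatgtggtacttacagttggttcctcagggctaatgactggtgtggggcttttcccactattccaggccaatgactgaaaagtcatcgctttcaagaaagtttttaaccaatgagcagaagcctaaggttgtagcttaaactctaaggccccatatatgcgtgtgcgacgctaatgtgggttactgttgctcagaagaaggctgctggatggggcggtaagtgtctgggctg
S100g (chrX:162964550-162964849, minus strand): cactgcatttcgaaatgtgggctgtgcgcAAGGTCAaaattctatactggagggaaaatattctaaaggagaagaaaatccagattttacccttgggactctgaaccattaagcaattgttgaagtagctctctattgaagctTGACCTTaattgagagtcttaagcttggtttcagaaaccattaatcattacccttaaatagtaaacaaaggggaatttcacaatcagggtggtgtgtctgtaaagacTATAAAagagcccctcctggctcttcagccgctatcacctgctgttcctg
Wfdc15b (chr2:164221614-164221913, minus strand): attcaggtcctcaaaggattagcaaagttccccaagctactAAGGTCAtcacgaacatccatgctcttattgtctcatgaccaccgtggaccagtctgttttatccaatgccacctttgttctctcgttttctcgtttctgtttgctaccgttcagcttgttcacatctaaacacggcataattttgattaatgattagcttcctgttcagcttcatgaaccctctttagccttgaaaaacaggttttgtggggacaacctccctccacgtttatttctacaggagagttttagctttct
Umod (chr7:119479213-119479512, minus strand): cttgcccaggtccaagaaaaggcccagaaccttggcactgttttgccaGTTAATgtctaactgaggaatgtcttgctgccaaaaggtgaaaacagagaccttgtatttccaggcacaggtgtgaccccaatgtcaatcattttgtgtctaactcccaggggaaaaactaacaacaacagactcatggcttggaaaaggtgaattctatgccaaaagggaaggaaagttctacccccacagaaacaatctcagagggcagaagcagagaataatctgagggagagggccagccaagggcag

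Windows were found for 24 of the 30 genes, 28 windows in all because Kcnj16 and Pvalb have more than 1. AAGGTCA was in 3 windows (10.7%), of Kcnj16, S100g and Wfdc15b, against 4.72% of 32851 mouse promoter windows. GTTAAT was in 2 windows (7.14%), of Kcnj16 and Umod, against 7.1%. TATAAA was in 4 (14.3%), of Kcnj16, S100g, Slc12a3 and Trpv5, against 13.6%, and CACGTG in 0, against 7.15%. The Slc12a1 window held none of these letter strings.

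All 30 genes passed the filter on low counts. A call needed an FDR below 0.05 with more than a 1.5-fold difference either way, and edgeR's quasi-likelihood test called 0 of the 30, where it called 16 of 15728 genes tested (0.102%). At an unadjusted p under 0.05, 4 genes were higher in KMS (S100g, Fxyd2, Wfdc15b and Pvalb), against 10.8% of all genes, and 1 was lower (Slc12a1), against 8.62%. DESeq2 called 1 of the 30 (3.33%) in either direction, S100g, higher. Of 20064 genes it called 255 higher (1.27%) and 817 lower. These equal the paper's numbers of upregulated and downregulated genes at the same thresholds, here without an RUVSeq factor. The likelihood ratio test of edgeR also called S100g alone, with 131 of 15728 genes higher (0.833%) and 471 lower. The groups overlapped for all 30 genes, whereas they did not overlap for 4.79% of genes tested. The log2 fold change was above 0 for 18 of 30, against 54% of all genes, and its median was 0.13 over the 30 and 0.06 over all. The values in each library are plotted by gene.

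**Figure D1:**
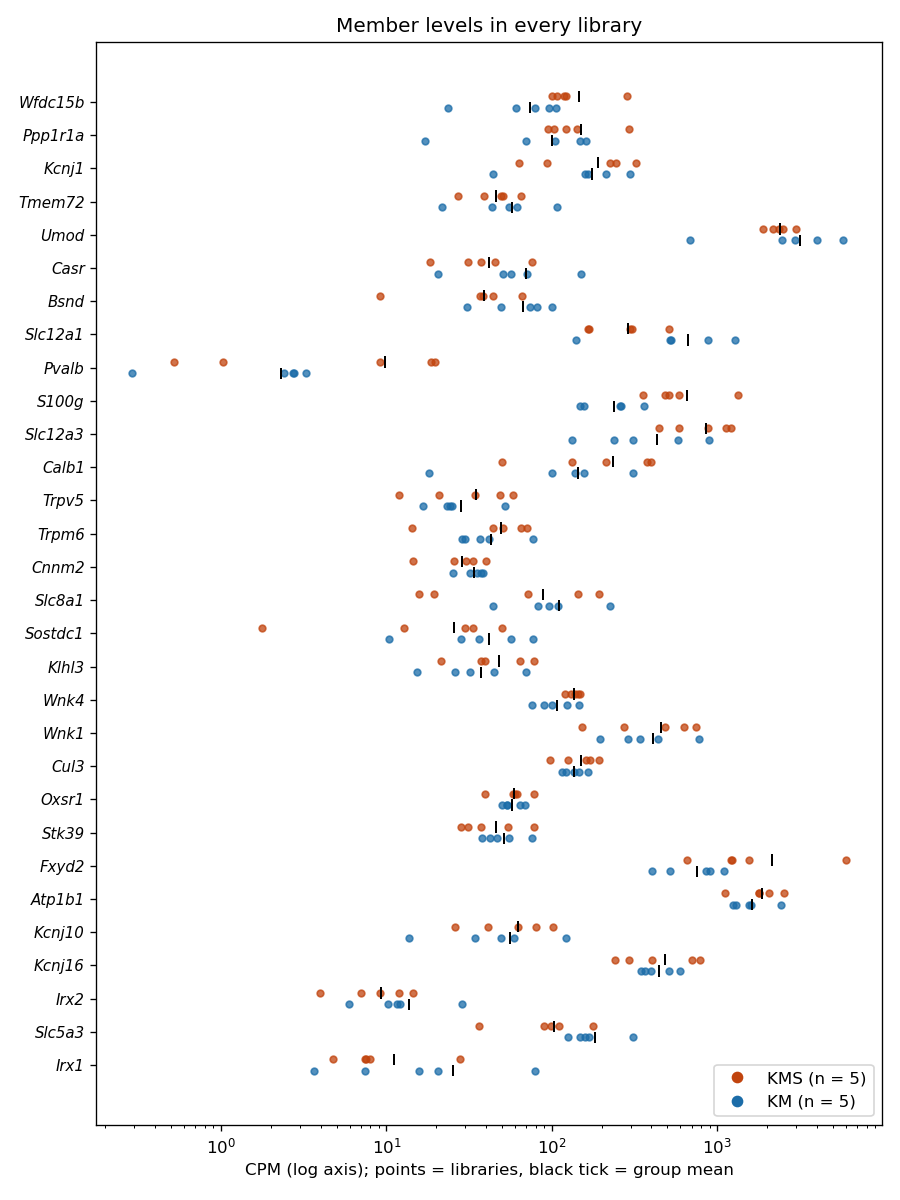
Level of each of the 30 genes in CPM (log axis), with 1 point a library, KMS above KM in each row, and a black tick for the group mean. The groups overlap in every row, and S100g comes closest to separation, with 358 CPM in its lowest KMS library and 362 CPM in its highest KM library.

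Total counts were 16925118 to 25029639 in KMS and 10873993 to 14564152 in KM libraries, and levels are given as CPM, the counts scaled to library size with TMM factors. Mitochondrial transcripts took 4.26% to 21.1% of counts in KMS and 5.13% to 26.7% in KM libraries. The pair closest to each other, KM replicates 1 and 2 (Spearman correlation over genes 0.993), still differed by more than sampling noise. Chi-square per gene, a measure of difference between libraries, was 5.79 for this pair and 49.4 for the next closest within a group, KM replicates 4 and 5. How independent KM replicates 1 and 2 are was not tested. Setd2 (log2 fold change -0.25), Myc (0.36) and Cdh16 (0.33) were not called. Setd2 had 89.0, 36.2, 71.1, 60.4 and 28.2 CPM in KMS replicates 1 to 5, against 62.6 to 73.3 CPM in KM. Gene counts may hold reads of Setd2 outside the deleted part and may miss reads of a MYC transgene, so they check no label. The part of such reads was not tested.

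The 8 genes of thick limb salt transport and markers had a median log2 fold change of -0.37, with 3 above and 5 below 0. Slc12a1 encodes NKCC2, the apical cotransporter that loop diuretics block. Its CPM was 167, 298, 510, 304 and 166 in KMS replicates 1 to 5, against 874, 522, 1282, 516 and 139 in KM replicates 1 to 5. Every KMS library lay below 4 of the 5 KM libraries, and KM replicate 5 lay below them all. Its log2 fold change was -1.21 (SE 0.52, unadjusted p = 0.0393, edgeR adjusted p = 0.238), which is no call, and it ranged from -1.51 to -0.82 with each library left out in turn.

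Umod encodes uromodulin, the most abundant protein of normal urine and a product of the same cells. It had 2166, 2504, 3007, 1890 and 2351 CPM in KMS, against 4013, 2969, 5803, 2455 and 681 CPM in KM. The KMS libraries spanned a 1.59-fold range and the KM libraries an 8.52-fold range, with KM replicates on both sides. Its log2 fold change was -0.42 (SE 0.47). Kcnj1 encodes ROMK, the channel that returns potassium to the lumen for NKCC2, and had a log2 fold change of 0.11 (SE 0.51). Bsnd encodes barttin, a subunit of basolateral chloride channels, and had 9.12 to 65.9 CPM in KMS and 30.6 to 99.9 CPM in KM, with a log2 fold change of -0.79 (SE 0.45). Casr, the calcium-sensing receptor that restrains salt and calcium uptake in the limb, had -0.74 (SE 0.48).

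Wfdc15b, a gene of a WAP-domain protein, had 121, 108, 119, 101 and 285 CPM in KMS, against 107, 79.6, 96.7, 60.9 and 23.5 CPM in KM. KMS replicate 5 stood apart from the other 4 KMS libraries, of which only replicate 4 lay below a KM library (101 CPM, against 107 CPM in KM replicate 1). The log2 fold change was 0.998 (SE 0.41, unadjusted p = 0.0328, edgeR adjusted p = 0.228), and 0.63 without KMS replicate 5. Ppp1r1a, an inhibitor of protein phosphatase 1, had 0.60 (SE 0.51), and Tmem72, a kidney membrane protein gene, had -0.32 (SE 0.37).

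The 9 genes of distal convoluted tubule salt, calcium and magnesium handling had a median log2 fold change of 0.30, with 6 above and 3 below 0. Slc12a3 encodes NCC, the thiazide-sensitive cotransporter. Its CPM was 586, 1123, 1220, 880 and 442 in KMS, against 311, 237, 888, 583 and 133 in KM. Only KM replicate 3 reached the middle of the KMS libraries. The log2 fold change was 0.98 (SE 0.50, edgeR adjusted p = 0.295), and 0.75 to 1.44 with each library left out in turn. With the level of Y-linked genes as a covariate it was 0.70 (edgeR adjusted p = 0.484). At the other end, limma-voom with sample quality weights gave 1.68 with an adjusted p of 0.0464.

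S100g encodes calbindin-D9k, a calcium carrier of the distal tubule cytosol. It had 586, 508, 484, 358 and 1329 CPM in KMS, against 262, 260, 362, 149 and 157 CPM in KM. The only KMS library below a KM library was replicate 4 (358 against 362 CPM in KM replicate 3), and KMS replicate 5 was the highest of all 10. The fitted log2 difference was 1.46 (SE 0.40, unadjusted p = 0.00352, edgeR adjusted p = 0.150). DESeq2 gave an adjusted p of 0.0145 and edgeR's likelihood ratio test 0.0251. Without KMS replicate 5 the log2 fold change was 1.04.

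Calb1 encodes calbindin-D28k, the larger calcium carrier, and its 49.7 to 396 CPM in KMS and 18.2 to 309 CPM in KM gave 0.69 (SE 0.66). Pvalb encodes parvalbumin, a calcium buffer of the early segment. It had 1.03, 0.519, 18.7, 19.6 and 9.16 CPM in KMS, against 3.28, 2.42, 2.72, 2.75 and 0.290 CPM in KM, with KMS replicates 1 and 2 below 4 of 5 KM libraries and the other 3 above all. Its log2 fold change was 2.09 (SE 0.91, edgeR adjusted p = 0.239), and 1.25 with limma-voom, 1.47 with quality weights and 1.49 with the replicate block. Trpv5, the apical calcium channel, had 0.30 (SE 0.43), and Slc8a1, the basolateral sodium-calcium exchanger, had -0.33 (SE 0.66). Trpm6, the apical magnesium channel, had 0.20 (SE 0.40), Cnnm2, a basolateral protein of magnesium handling, had -0.23 (SE 0.26), and Sostdc1, a secreted BMP and Wnt antagonist, had -0.71 (SE 0.70).

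**Figure D2:**
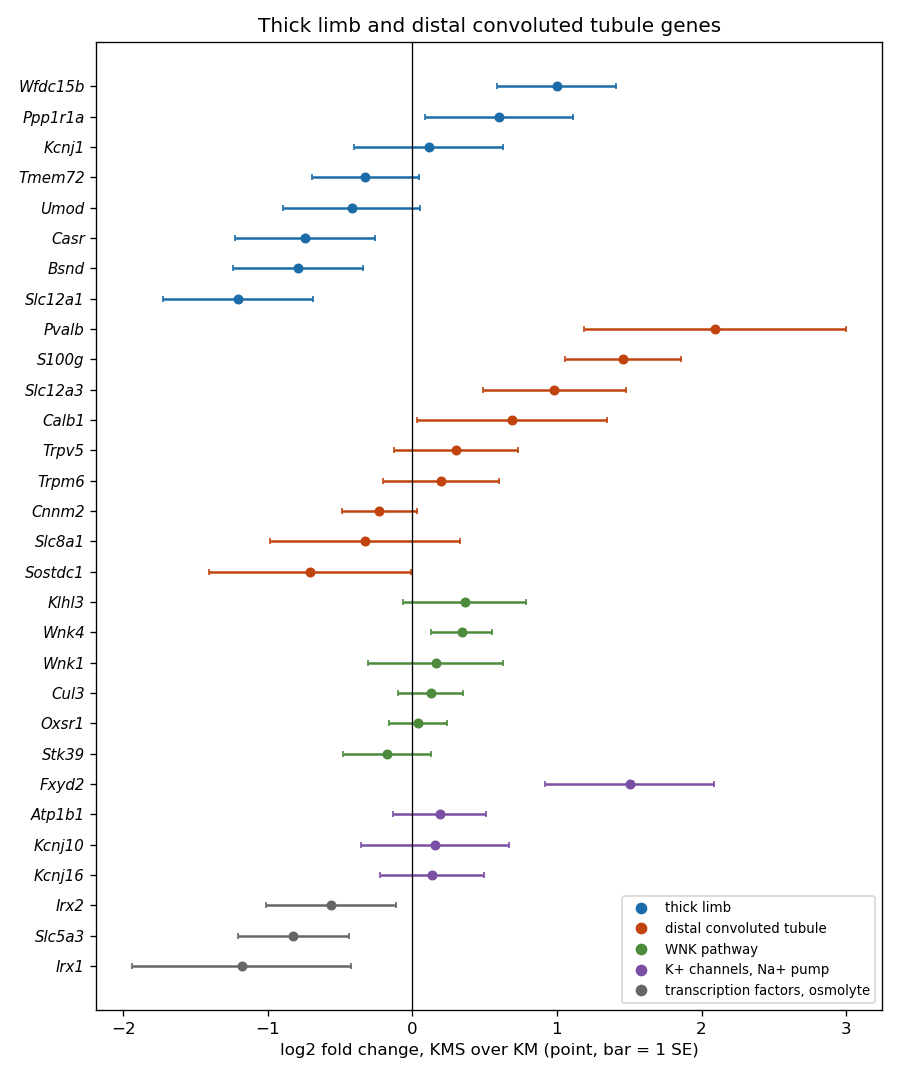
Log2 fold change of each of the 30 genes, KMS over KM, with bars of 1 SE and colors for the 5 roles. Values run from -1.21 for Slc12a1 to 2.09 for Pvalb, and genes of 1 role lie on both sides of 0 except the 4 of the channels and pump and the 3 of the last group.

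Within each library the ratio of Slc12a3 to Slc12a1 counts was taken, since it does not depend on depth or on normalization. It was 3.50, 3.77, 2.39, 2.89 and 2.66 in KMS, against 0.356, 0.453, 0.692, 1.13 and 0.952 in KM. The groups did not overlap, the geometric means were 3.002 in KMS and 0.654 in KM, and the ratio was 4.59-fold higher in KMS, a log2 difference of 2.198 (1.98 to 2.39 with each library left out). The ratio was picked after its values were seen, so it has no test. It carries the lengths of both transcripts, so only its difference between libraries is read. That difference may carry length too, as Slc12a3 has 11119 exon bases and Slc12a1 5763. Over the 30 genes, exon length and level relative to the group had Spearman correlations of -0.53 and -0.71 in KM replicates 1 and 2. Both had the lowest ratios, while KMS replicate 5, at -0.74, had 2.66. The part of length in the ratio was not tested. Umod to Slc12a1 also did not overlap, at 5.90 to 14.2 in KMS and 4.53 to 5.68 in KM, nor did Kcnj1 to Slc12a1, at 0.380 to 0.809 in KMS and 0.232 to 0.323 in KM. Bsnd to Slc12a1 overlapped widely, at 0.0546 to 0.232 in KMS and 0.0779 to 0.220 in KM.

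Of the 435 pairs among the 30 genes, 38 (8.74%) had ratios that did not overlap, against 5.4% of all pairs of tested genes with no count of 0. The ratio to Slc12a1 was above KM in every KMS library for 7 of the other 29 genes (Umod, Kcnj1, Ppp1r1a, Slc12a3, Klhl3, Kcnj10 and Wfdc15b), or 24.1%, against 0.405% of 15290 genes. Slc12a1 was itself lowest in KM replicate 5 (139 CPM), the lowest KM library for 22 of the 30 genes. The part of that library in the 24.1% was not tested. The ratio to Slc12a3 was below KM in every KMS library for 9 of the other 29, or 31.0%, against 5.51% of genes. Both denominators were picked after their values were seen, so these shares are no test. In lists of other genes, the ratio to Slc12a1 was above in every KMS library for 1 of 15 distal convoluted and connecting tubule genes (Emx1). The ratio to Slc12a3 was below for 2 of 15 of them, for 1 of 11 other thick limb genes, and for 7 of 7 intercalated cell, 4 of 6 dividing cell and 3 of 7 fibroblast genes, so that pattern was not particular to these segments.

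**Figure D3:**
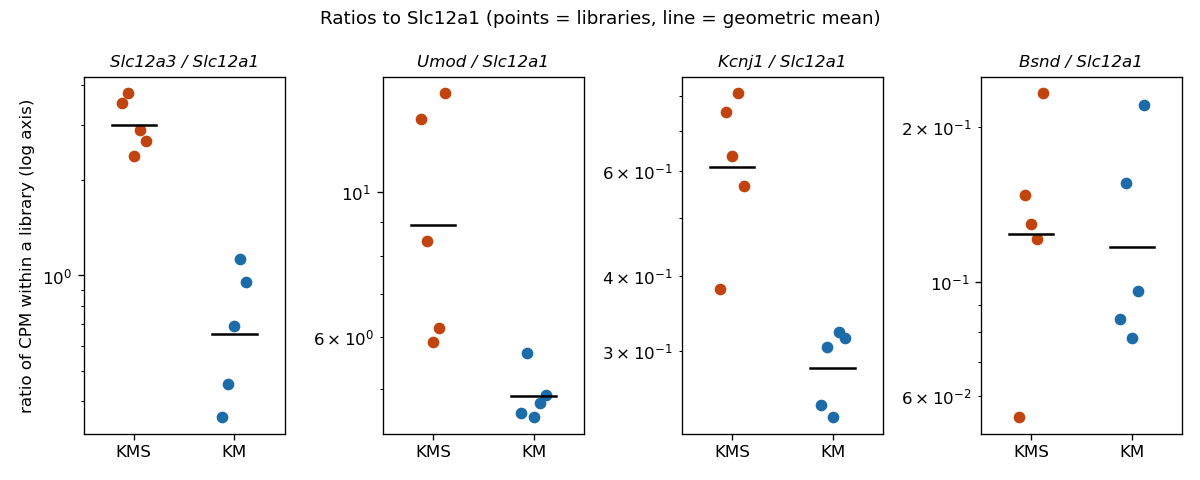
Ratio of Slc12a3, Umod, Kcnj1 and Bsnd to Slc12a1 within each library (log axis), KMS left of KM, with 1 point a library and a line at the geometric mean. The first 3 ratios do not overlap between the groups, with 2.39 to 3.77 in KMS and 0.356 to 1.13 in KM for Slc12a3, and that of Bsnd does.

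The 6 genes of the WNK kinase pathway had a median log2 fold change of 0.14, with 5 above and 1 below 0. Wnk4, the kinase that activates NCC through SPAK, had 143, 148, 137, 120 and 130 CPM in KMS, against 100, 76.0, 146, 124 and 89.5 CPM in KM. KMS libraries spanned a 1.23-fold range, which fell within the upper end of KM or above it, and the log2 fold change was 0.34 (SE 0.21). Wnk1 had 0.16 (SE 0.47), Klhl3, the adaptor of the ligase, 0.36 (SE 0.42), and Cul3, its scaffold, 0.13 (SE 0.22). Stk39, which encodes SPAK, had -0.17 (SE 0.31), and Oxsr1, which encodes OSR1, 0.04 (SE 0.20).

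The 4 genes of basolateral potassium channels and the sodium pump were all above 0, with a median of 0.17. Fxyd2, the gamma subunit of the pump, had 653, 1564, 1219, 1235 and 6035 CPM in KMS, against 1097, 905, 857, 519 and 402 CPM in KM. KMS replicate 5 was far above every other library and KMS replicate 1 was below 3 KM libraries. The log2 fold change was 1.502 (SE 0.58, edgeR adjusted p = 0.211), and 0.63 without KMS replicate 5 or 0.47 with limma-voom quality weights. Atp1b1, the beta subunit, had 0.19 (SE 0.32), and Kcnj10 and Kcnj16, which form the basolateral Kir4.1 and Kir5.1 channel, had 0.16 (SE 0.51) and 0.14 (SE 0.36).

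The remaining 3 genes were all below 0, with a median of -0.82. Slc5a3, the sodium and myo-inositol cotransporter that brings in osmolyte, had 178, 99.0, 111, 90.2 and 36.3 CPM in KMS, against 158, 125, 148, 168 and 311 CPM in KM. Its exons share 159 bases with Mrps6 on the same strand. Its log2 fold change was -0.82 (SE 0.38, unadjusted p = 0.0537, edgeR adjusted p = 0.262). Irx1, an Iroquois transcription factor, had 7.53, 7.44, 7.98, 4.78 and 28.0 CPM in KMS, against 20.5, 15.8, 78.7, 7.43 and 3.63 CPM in KM, and its log2 fold change of -1.18 (SE 0.76) was -0.08 without KM replicate 3 and -1.87 without KMS replicate 5. Its relative Irx2 had -0.56 (SE 0.45).

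Per kilobase of exon, the highest mean levels were S100g (1361 CPM per kb), Umod (863), Atp1b1 (603) and Fxyd2 (535) in KMS, and Umod (1153), Atp1b1 (529), S100g (496) and Fxyd2 (189) in KM. Without KMS replicate 5, Fxyd2 averaged 292 CPM per kb in KMS. Slc12a3 ranked 8th of 30 in KMS with 76.5 CPM per kb and 10th in KM with 38.7, while Slc12a1 ranked 10th in KMS with 50.1 and 6th in KM with 116. The library ranges of neighbors in this order overlapped for 29 of 29 pairs in KMS and 28 of 29 pairs in KM. Exons of Atp1b1 share 575 bases with Nme7, and those of Umod 539 bases with Gm44588, each on the opposite strand, so without a stated strand setting reads of these pairs may be mixed. Exon length was the union over GENCODE transcripts, which is long for genes such as Slc12a3 and Tmem72.

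Some libraries stood high or low in their group for many of the genes. KM replicate 3 was the highest KM library for 22 of 30 genes and KM replicate 5 the lowest for 22, and in KMS, replicate 3 was the highest for 15 and replicate 5 the lowest for 14. KMS replicate 5 had a TMM factor of 0.642 and the lowest mitochondrial share of all 10 libraries, and KM replicate 5 had the highest summed level of the tubule injury list. Across the 30 genes, the Spearman correlation of exon length with the level relative to the other KMS libraries was -0.74 in KMS replicate 5 and 0.16 to 0.31 in the other 4, a description over genes that share each library. In KM it was -0.71 in replicate 2, -0.53 in replicate 1 and 0.11 to 0.48 in the others. S100g and Wfdc15b have the shortest exon unions of the 30, at 480 and 572 bases. The part of this in their values was not tested.

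**Figure D4:**
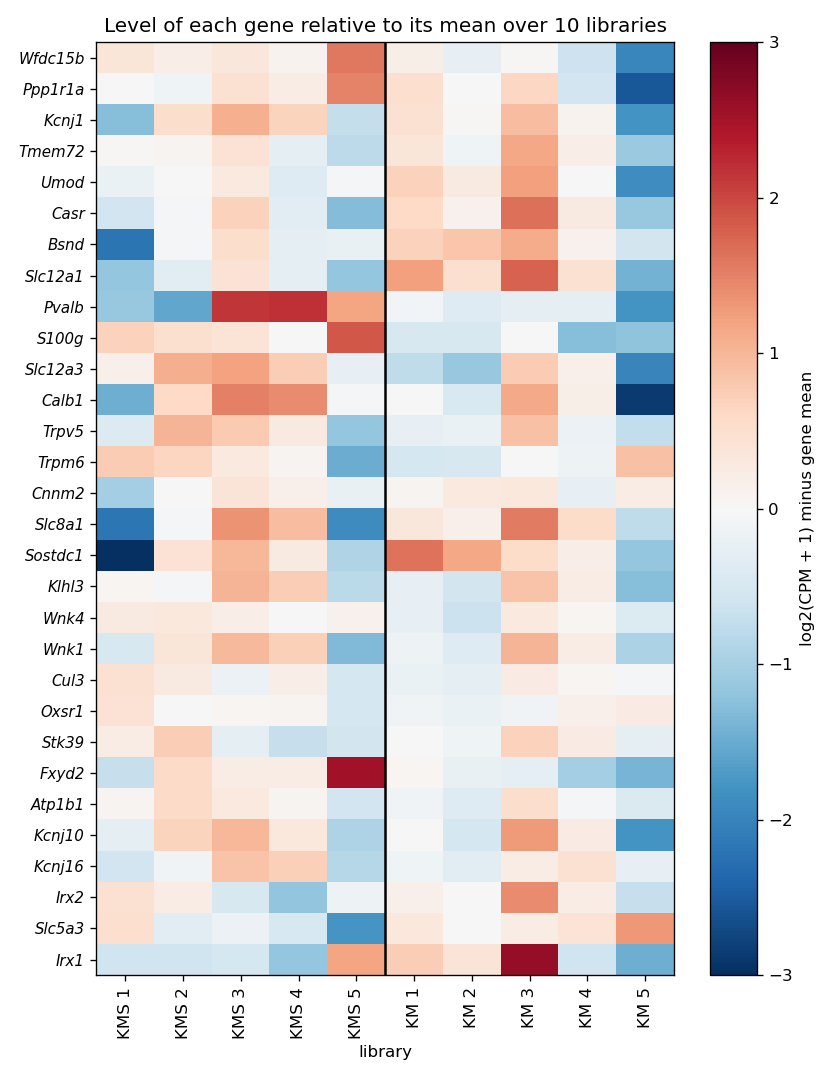
Level of each gene in each library as log2(CPM + 1) minus the mean of the gene over 10 libraries, with the 5 KMS libraries left of the 5 KM libraries. KM replicate 3 is red, high, for most genes and KM replicate 5 blue, low, each for 22 of 30 within KM.

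Among other thick limb genes, 11 of 12 were tested, 6 above and 5 below 0, with 0 called and a median of 0.10. Among other genes of the distal convoluted and connecting tubule, 15 of 16 were tested, 10 above and 5 below 0, with 0 called and a median of 0.03. Pcbd1, a cofactor of HNF1 factors, had 1.06 (SE 0.34, unadjusted p = 0.00919), and Emx1, a homeobox gene, had 1.25 (SE 0.44, unadjusted p = 0.0146). Both were highest in KMS replicate 5, Pcbd1 at 563 CPM and Emx1 at 78.8 CPM. Among other genes of the WNK, SPAK and OSR1 network, 15 of 16 were tested, 8 above and 7 below 0, with 0 called, and Rbx1, Nedd8 and Ppp1ca were above 0 at an unadjusted p of 0.0189, 0.0460 and 0.0494, all highest in KMS replicate 5. The edgeR adjusted p of these 5 genes was 0.179 to 0.256.

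In bulk RNA, fewer cells of a type and less RNA per cell cannot be told apart. Summed levels of the proximal tubule list, 2272 to 12662 CPM in KMS and 5634 to 7372 CPM in KM, overlapped, as did those of the principal cell list, 148 to 829 CPM in KMS and 137 to 622 CPM in KM. Those of the intercalated cell list were 198 to 459 CPM in KMS and 487 to 1200 CPM in KM, with 7 of 7 genes below 0, 6 of them at an unadjusted p under 0.05, 3 without overlap and 0 called. The fibroblast list had 128 to 190 CPM in KMS and 244 to 549 CPM in KM, and the T cell list 1.31 to 6.85 CPM in KMS and 17.6 to 36.4 CPM in KM. The dividing cell list had 10.8 to 46.2 CPM in KMS and 45.4 to 127 CPM in KM, with 6 of 6 genes lower at an unadjusted p under 0.05. The macrophage list, 38.2 to 201 CPM in KMS and 138 to 256 CPM in KM, had 3 of 6 such genes, and the B cell list, 47.2 to 190 CPM in KMS and 67.8 to 531 CPM in KM, had 5 of 6. None of these lists held a called gene. The part of these cell types in the values of the 30 genes was not tested.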

How the data were processed

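Polyadenylated RNA was sequenced from 5 KMS and 5 KM kidney libraries. By the paper, reads were filtered, aligned to GRCm38 with HISAT2 and counted with HTSeq, and RUVSeq was applied against unwanted variation. The processing tools of the sample record name StringTie and not HTSeq. The strand setting of the counting was not stated. Whole-number counts were deposited, unnormalized and unpooled. Columns of the authors' own log2 fold changes, p-values and FDR were deposited beside them and not used. Libraries were grouped by labelled genotype, 0 columns were left unmapped; the design text gives 1 mouse per library.

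Counts were analysed in R 4.3.3 with edgeR 4.0.16 (TMM, filterByExpr, quasi-likelihood test, Benjamini-Hochberg over 15728 genes). DESeq2 1.42.0, limma 3.58.1, other factors, filters, covariates, thinning and libraries left out were alternatives. The 30 genes and the gene lists were chosen with earlier results of these data known. All 30 are named, with at most 3 genes of lowest p from each other pathway list. Plots were drawn with matplotlib 3.10.9 in Python 3.11.15. Exon lengths came from GENCODE vM21, and promoters from RefSeq. The result of 1 gene is not reported here.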

Additional observations from a re-analysis of the deposited data

Results flagged for a closer look

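In 80 groups of 5 libraries (60 of gene levels, 20 of ratios), 14 had a library far from the other 4. For independent, normally distributed values chance gives about 1 in 20. These values were not log-transformed and the groups share the same 10 libraries, so the 14 cannot be read against that rate. KMS replicate 5 stood high for Fxyd2 (6035 CPM), S100g (1329 CPM), Wfdc15b (285 CPM), Ppp1r1a (293 CPM), Irx1 (28.0 CPM) and the ratio of Fxyd2 to Atp1b1 (5.38). KM replicate 5 stood low for Pvalb (0.290 CPM) and high for Trpm6 (76.9 CPM), Slc5a3 (311 CPM), the ratio of S100g to Calb1 (8.59) and the ratio of Kcnj16 to Kcnj10 (26.5). KM replicate 3 stood high for Trpv5 (52.2 CPM), Irx1 (78.7 CPM) and Irx2 (28.8 CPM). What sets these libraries apart was not tested.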

How the results depend on the processing

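The count of the 30 genes called was 0 under edgeR's quasi-likelihood test and stayed 0 with each library left out in turn. It was 1 with DESeq2, with the likelihood ratio test and with RUVg (S100g each time, adjusted p 0.0145, 0.0251 and 0.0161) and 1 with limma-voom quality weights (Slc12a3). Over all genes, 16 calls became 25 with upper-quartile factors, 1072 with DESeq2, 33 with limma-voom, 660 with quality weights, 602 with the likelihood ratio test, 998 with RUVg and 9 to 42 with a library left out. The quasi-likelihood test was first run with legacy=FALSE (33 calls, 0 of the 30) and then with this version's default, legacy=TRUE, which is reported; that choice was made after seeing the data, as was the run of ratios without each library. The replicate block gave 2 calls, 0 of them among the 30; same-numbered libraries correlated at -0.44 to 0.14, so the numbers do not pair the libraries. Upper-quartile factors shifted the median of all genes to -0.09. Signs turned in 5 of 420 values outside the runs without a library: Oxsr1 (-0.10 with upper-quartile factors, -0.053 with the Y-linked covariate), Cul3 (-0.014, upper quartile), Slc8a1 (0.13, quality weights) and Kcnj10 (-0.13, Y-linked covariate). With a library left out, values turned for Kcnj1 (-0.16 to 0.39), Slc8a1 (-0.82 to 0.099), Wnk1 (-0.083 to 0.53), Stk39 (-0.44 to 0.013), Oxsr1 (-0.074 to 0.19), Kcnj10 (-0.092 to 0.67), Kcnj16 (-0.097 to 0.34) and Tmem72 (-0.53 to 0.031). The causes were not tested.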
